A study of Mus musculus with 6 samples.

Results

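The genes described here are 7 eosinophil genes, Epx, Prg2, Prg3, Ear1, Ear2, Ear6 and Ear10, of 27179 genes in a deposited RNA-seq table of long-term haematopoietic stem cells (LT-HSC) of the mouse, rare marrow cells from which every blood lineage can be rebuilt. They are a list of granule proteins and ribonucleases of eosinophils that was chosen by their reads in these same control and knockout libraries. Their differences between the groups are therefore given as a description, with no test.

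The study compared LT-HSC with and without Prdm16, a zinc-finger transcriptional regulator. Control mice had the genotype Prdm16-Mx1-Cko/Cko; +/+ and knockout mice the genotype Prdm16-Mx1-Cko/Cko; Tg/+, so both carried the conditional Prdm16 alleles and only the knockout carried the Mx1-Cre transgene. All mice were adult C57BL/6 animals of 8 to 12 weeks, and pIpC, a synthetic double-stranded RNA that turns on the Mx1 promoter, had been injected 5 times in both groups. Mx1 answers to interferon in many cell types, so the deletion need not be limited to stem cells, and both groups had met the same interferon stimulus. Marrow was pooled from 5 mice of each genotype and Lin-Sca-1+c-Kit+CD48-CD150+ cells were sorted 5 weeks after pIpC into 3 technical replicates per genotype. The 3 libraries of a group are thus portions of 1 sort, and every spread or p-value below measures the difference between portions and not between mice.

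Eosinophils are granulocytes that develop in the bone marrow under interleukin 5 and leave it for tissues such as the gut, lung and fat. Their granules are filled with basic, toxic proteins that are made while the cell is still a precursor in the marrow. Epx encodes eosinophil peroxidase, a heme enzyme that turns halides into oxidants. Prg2 encodes major basic protein, the main component of the crystalline core of the granule, and Prg3 encodes a homologue of it. The Ear genes encode eosinophil-associated ribonucleases, a rapidly diversifying branch of the RNase A superfamily that is related to eosinophil cationic protein and eosinophil-derived neurotoxin of humans.

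The 6 libraries held 36747729 to 43743795 reads, and levels are given in CPM, which are reads scaled to a common library size. In the targeted gene, Prdm16, reads numbered 1630, 1860 and 1381 in control and 323, 388 and 643 in knockout, which is 40.8 ± 9.41 against 10.8 ± 3.37 CPM (mean ± SD, n = 3 each). LT-HSC genes were abundant in both groups, since the 10 genes of an LT-HSC list (among them Kit, Hlf, Mecom and Procr) summed to 2490 to 2660 CPM in control and 2480 to 2760 CPM in knockout. Some genes were unevenly sampled, with 0 reads in 1 library and at least 20 in another of the same group for 2.55% of tested genes in control and 1.81% in knockout.

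The 7 genes together were almost unread in control LT-HSC and clearly read in knockout LT-HSC. The control libraries had 36, 23 and 39 reads on all 7 genes, and the knockout libraries 20176, 27871 and 24049. As levels, the sums were 0.891, 0.624 and 0.894 CPM in control and 545.9, 649.2 and 550.4 CPM in knockout. The pooled level was 720-fold higher in knockout, with an exact 95% counting interval of 590 to 887. Even so, the reads of the 7 genes came to only 0.0546%, 0.0649% and 0.0550% of the effective library size, to which CPM are scaled, in the knockout libraries. In bulk RNA, a few cells with much of such a transcript and many cells with little of it cannot be told apart. Intervals and floors cover counting error only, because, with no molecular identifiers, several reads can come from 1 molecule.

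Of the 7 genes, 6 had every knockout library above every control library, where 8.52% of the 13018 tested genes did, but the genes were chosen with these values known and nothing is read from that count. The same 6 passed the low-value filter (at least 1 CPM in at least 3 libraries). Each passed through the knockout libraries alone, since all 7 genes lay below 1 CPM in every control library.

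**Figure D1:**
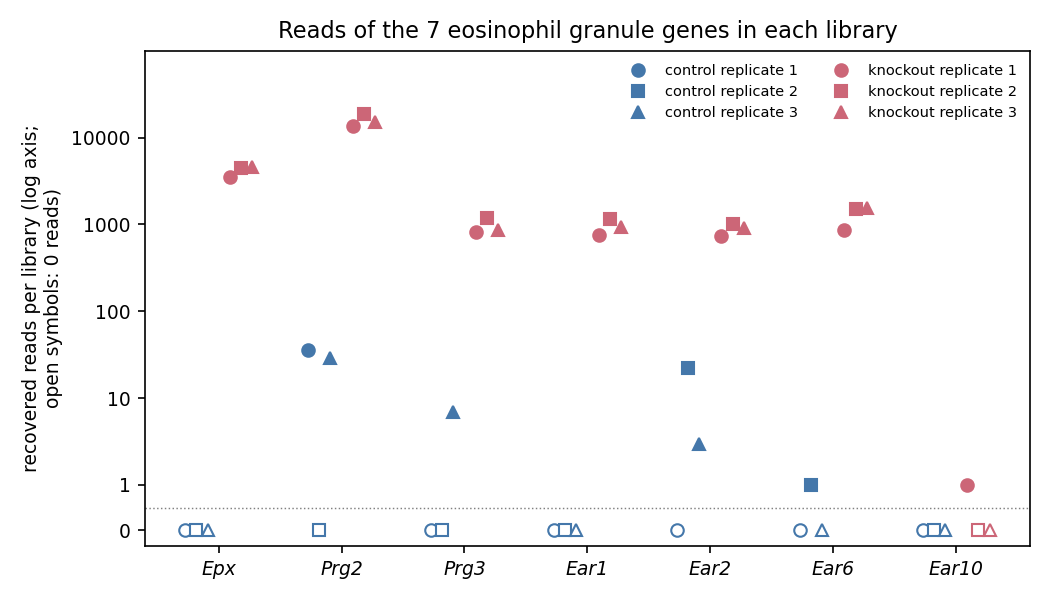
Recovered reads of each of the 7 genes in each library (log axis, with 0 drawn as open symbols under the dotted line); blue symbols are the 3 control libraries and red symbols the 3 knockout libraries. Epx, Prg2, Prg3, Ear1, Ear2 and Ear6 have 741 to 18560 reads in each knockout library and at most 36 in any control library, while Ear10 has 1 read in all.

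Epx lies on chromosome 11 (87863997 to 87875536, mm10; gene ID 13861), and its coding model has 13 exons. No control library had an Epx read, while knockout libraries had 3522, 4445 and 4577. The knockout levels were 95.3, 103.5 and 104.8 CPM, a mean of 101.2 ± 5.15 CPM (SD, n = 3). The peroxidase transcript was therefore at least 1350-fold higher in knockout than the limit set by 3 reads in each control library, which is 0.0748 CPM on average. Epx also had the steadiest level of the 7 genes, with a coefficient of variation of 5.09% between knockout libraries, where counting alone gives 1.55%. A count of 0 in every control library was found for 10279 of 27179 genes, but only 18030 of the 27179 had a read in any library. Of the genes with no control read, 56 reached a mean of 1 CPM in knockout and 6 reached 10 CPM. Epx was the second highest of them, but it was chosen by these same reads and nothing is read from that rank.

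Prg2 is on chromosome 2 (84980461 to 84983632; gene ID 19074) and was the most abundant of the 7 genes. Control libraries had 36, 0 and 29 Prg2 reads, and knockout libraries had 13476, 18560 and 15238. The control level was 0.519 ± 0.463 CPM and the knockout level 381.9 ± 44.4 CPM (n = 3 each), a 711-fold ratio of pooled levels with an exact 95% counting interval of 558 to 922. The transcript of major basic protein ranked 330 of 27179 genes by mean level in knockout LT-HSC. Control replicate 2 had no Prg2 read, and without it the ratio of pooled Prg2 levels was 494 (388 to 641). Without control replicate 1 it was 1060 (739 to 1590), so the ratio depended on single control libraries beyond its counting interval.

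Prg3, the homologue, starts 4563 bases past the end of Prg2 (chromosome 2, 84988196 to 84996559; gene ID 53856). It had 0, 0 and 7 control reads against 813, 1186 and 852 knockout reads, or 0.0535 CPM against 23.0 ± 4.16 CPM. The ratio of pooled levels was 398, with a counting interval of 193 to 992. It was 265 without control replicate 1, and without control replicate 3 no control read was left. Both genes of this pair were high in the same 3 libraries, and the reads of Prg2 were 16.6, 15.6 and 17.9 times those of Prg3 in knockout replicates 1, 2 and 3. Their coding sequences are identical at 64.3% of 684 aligned positions, with no run over 23 bases, so reads of the pair can be told from each other.

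Of the genes near the pair and near Epx, taken by position, Mpo was high in knockout as well and is described with the peroxidases below. Slc43a3, a transporter gene before Prg2 on the chromosome, had 104.1 ± 5.31 CPM in control and 99.04 ± 3.61 in knockout (log2 fold change -0.07, SE 0.11, limma adjusted p = 0.861). P2rx3, an ion channel gene whose annotated range overlaps the end of Prg3, had 157 reads in the control libraries and 49 in the knockout libraries and did not pass the filter. Mks1, a gene of the primary cilium next to Epx, had 8.62 ± 2.57 and 8.77 ± 4.80 CPM (limma adjusted p = 0.974). Ssrp1, a histone chaperone gene past P2rx3, had a log2 fold change of -0.11 (SE 0.08, limma adjusted p = 0.647). Lpo and Olfr462, which lie to either side of the Mks1 and Epx pair, had 0 reads in every library.

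The 4 Ear genes are on chromosome 14, with Ear1 (43818765 to 43819639; gene ID 13586), Ear10 (43922898 to 43923596; gene ID 93725) and Ear2 (44102654 to 44103531; gene ID 13587) near each other and Ear6 (51853768 to 51854643; gene ID 93719) 7750236 bases past Ear2. They are recent copies of each other, and that bears on what their reads can show. The coding sequences of Ear2 and Ear10 are identical at 454 of 468 aligned bases (97.0%), those of Ear1 and Ear2 at 95.1%, and those of Ear6 and the other 3 at 87.3% to 87.6%. The longest stretch with no difference between Ear2 and Ear10 is 185 bases, at chr14:44102975-44103159 on the plus strand and chr14:43923096-43923280 on the minus strand (GRCm38). It is shown in lower case throughout because the copies have the same letters, so a read from inside it fits both genes:
Ear2 and Ear10 coding run: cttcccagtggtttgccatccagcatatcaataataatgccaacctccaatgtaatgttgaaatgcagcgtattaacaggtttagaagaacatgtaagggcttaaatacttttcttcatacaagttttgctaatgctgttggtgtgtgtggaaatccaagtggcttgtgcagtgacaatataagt

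Of the stretches of 75 bases in the transcript of Ear1, 39.3% occur in the transcript of another gene, and the share is 23.4% for Ear2 and 32.5% for Ear10. At 100 bases the shares are 23.9%, 13.9% and 24.2%. Ear6 shares no stretch of 75 bases, and Epx, Prg2 and Prg3 share none of 50. Neither the read length nor the handling of reads that fit several places is given in the sources used here. Reads of Ear1, Ear2 and Ear10 may therefore be split or left out by the counting, while Epx, Prg2, Prg3 and Ear6 are free of that limit at 75 bases. Of the stretches of 75 bases in Ear10, 67.5% are its own.

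Ear1 also had no read in any control library, against 765, 1154 and 922 in knockout. Its knockout level was 22.9 ± 3.46 CPM, at least 306-fold higher than the limit of 3 reads per control library. Ear1 was the fourth highest of the genes with no control read, again a rank by the reads that were used to choose it.

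Ear2 had 0, 22 and 3 control reads against 741, 1017 and 920 knockout reads. The levels were 0.222 ± 0.327 and 21.6 ± 1.88 CPM, a ratio of pooled levels of 105 with a counting interval of 70.8 to 162. Control replicate 2 alone gave 22 of the 25 control reads, and without it the ratio was 607 (207 to 2940). Without control replicate 1, which had no Ear2 read, it was 69.8. In control replicate 2, Ear2 made up 95.7% of the reads of the 7 genes, while Prg2 made up all of them in control replicate 1 and 74.4% in control replicate 3.

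Ear6 had 0, 1 and 0 control reads and 858, 1509 and 1540 knockout reads, or 31.2 ± 6.92 CPM in knockout. With 1 control read, the ratio of 3820 has a counting interval of 686 to 151000. It was 2540 without control replicate 1 and 2440 without control replicate 3, and control replicate 2 held the 1 read. Ear6 varied most between the knockout libraries, with a coefficient of variation of 22.2%, and knockout replicate 1 was the low library at 23.2 CPM against 35.2 and 35.3.

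Ear10 stood apart from its copies, with 0 control reads and 1, 0 and 0 knockout reads. Both groups are at or under the limit of 3 reads per library, so no ratio is given and no difference was detectable at this depth. Ear10 was the 1 gene of the 7 that did not pass the filter.

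Ear1, Ear2 and Ear10 also resemble each other just upstream, and those sequences are shown because 2 of the genes had counted reads in knockout LT-HSC and the third almost none. RefSeq (GRCm38.p6) has the 250 bases before the start of Ear1 at chr14:43819640-43819889 (minus strand), of Ear2 at chr14:44102404-44102653 (plus strand) and of Ear10 at chr14:43923597-43923846 (minus strand). Each is written 5′ to 3′ along its own gene, and capitals mark bases that differ from Ear1, or have no partner there, in a pairwise alignment:
Ear1: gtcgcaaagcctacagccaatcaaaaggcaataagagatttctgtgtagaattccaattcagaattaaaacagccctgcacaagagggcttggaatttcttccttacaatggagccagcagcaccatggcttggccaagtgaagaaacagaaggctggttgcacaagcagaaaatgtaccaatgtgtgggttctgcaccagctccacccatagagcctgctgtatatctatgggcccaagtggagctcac
Ear2: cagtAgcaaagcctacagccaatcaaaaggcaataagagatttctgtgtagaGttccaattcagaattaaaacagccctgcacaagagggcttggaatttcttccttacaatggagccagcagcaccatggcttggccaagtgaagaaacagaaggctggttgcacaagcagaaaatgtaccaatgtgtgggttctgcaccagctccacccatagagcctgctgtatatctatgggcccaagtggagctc
Ear10: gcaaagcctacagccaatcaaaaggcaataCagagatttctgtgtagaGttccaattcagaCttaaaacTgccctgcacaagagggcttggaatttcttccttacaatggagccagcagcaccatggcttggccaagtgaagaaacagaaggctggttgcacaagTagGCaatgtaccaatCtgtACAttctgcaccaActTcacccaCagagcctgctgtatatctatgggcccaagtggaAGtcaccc

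Over the aligned bases, Ear2 differs from Ear1 at 2 of 248 positions (99.2% identical) and Ear10 at 15, with 1 gap (93.5% identical). Most of the capitals of Ear10 lie in the part nearest the start, past the ttgcacaa that all 3 share. Ear6 is 85.1% identical to Ear1 over the same window. The RefSeq promoter table matched 6 of the 7 genes, all but Prg2. Short motifs were searched there on both strands, from 250 bases before to 50 bases after each start. They were AGATAA and TGATAA for GATA factors, TTGCNNAA for C/EBP factors and GAGGAA for PU.1 and other ETS factors. TTGCNNAA was found 92 bases upstream of Ear1, 90 upstream of Ear2 and 94 upstream of Ear10, and 10.8% of all 32851 promoter windows hold it. The match is thus found in Ear10, which had almost no counted read, as in Ear1 and Ear2. TGATAA was found 123 bases upstream of Prg3 on the minus strand (9.05% of windows). AGATAA (11.2% of windows) and GAGGAA (28.3%) were in none of the 6 windows, and those of Epx and Ear6 held none of the 4 motifs.

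Within the knockout group the make-up of the eosinophil reads was alike from library to library. Prg2 gave 66.8%, 66.6% and 63.4% of the reads of the 7 genes and Epx 17.5%, 15.9% and 19.0%. Each of Prg3, Ear1, Ear2 and Ear6 gave between 3.54% and 6.40%. Ear1 and Ear2, which share much sequence, were read nearly equally, in a ratio of 1.05 ± 0.0681. The ratio of Ear6 to Ear1 moved more, from 1.12 to 1.67. Knockout replicate 2 had the highest sum, through Prg2, Prg3, Ear1 and Ear2, while its Epx and Ear6 levels did not exceed those of knockout replicate 3.

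Levels can be compared between genes only per length of transcript. On that scale Prg2 was highest, at 455.7 ± 53.0 CPM per kilobase. Epx followed at 37.6 ± 1.92, Ear6 at 34.9 ± 7.75, Ear1 at 32.1 ± 4.85, Ear2 at 30.0 ± 2.62 and Prg3 at 24.3 ± 4.39 CPM per kilobase (SD, n = 3 each). Prg2 was apart from the rest in every knockout library. Each gene from Epx down to Prg3 lay within the summed SDs of the next one in this order, while Epx was above Ear2 and Prg3 in every knockout library and by more than the summed SDs. Reads of Ear1 and Ear2 may have been split or left out by the counting, so their levels may be too low and their places are uncertain. The place of Ear1 and Ear6 depends on the length taken: with the shortest coding model Ear1 came to 44.1 ± 6.67 and Ear6 to 43.8 ± 9.71, above Epx.

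**Figure D2:**
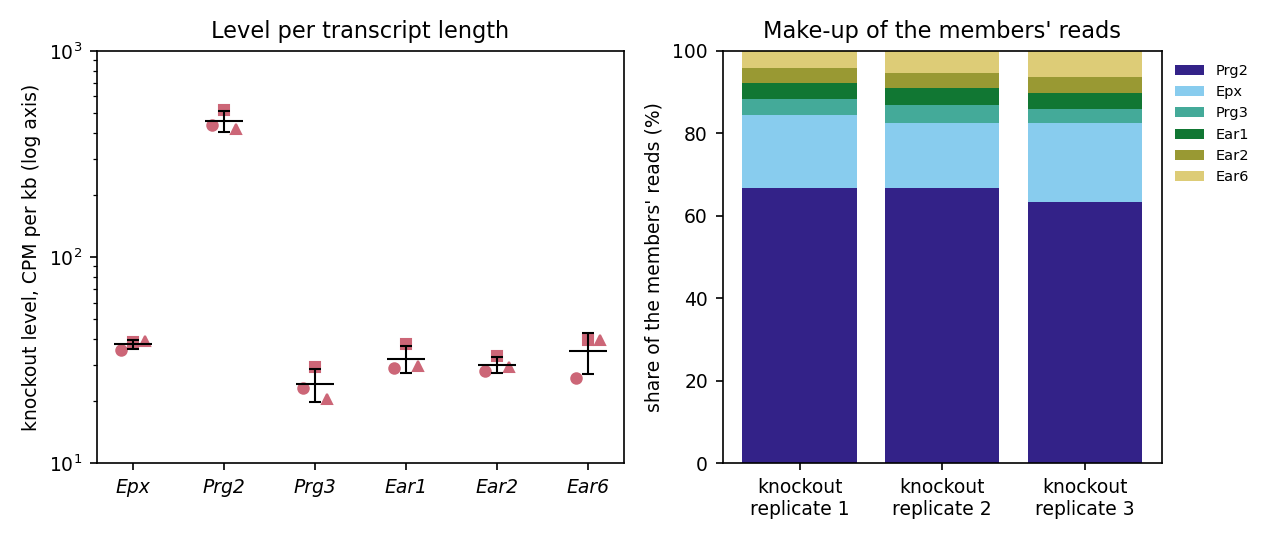
Left, knockout level of the 6 detected genes in CPM per kilobase of transcript (log axis), with symbols for the 3 libraries and bars for mean ± SD; right, share of each gene in the reads of the 7 genes per knockout library, in percent. The mean of Prg2 is 455.7 and those of the other 5 are 24.3 to 37.6 CPM per kilobase, and Prg2 and Epx fill most of each bar.

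To see whether other genes of eosinophil biology moved with the granule genes, 5 lists were set up from general knowledge: RNase A relatives, heme peroxidases, receptors, transcription factors, and enzymes with granule and secretion genes. Of 57 genes in these lists with a row in the table, 39 were tested, 4 were higher in knockout and 0 were lower (limma, Benjamini-Hochberg adjusted p below 0.05 over 13018 genes). Among all tested genes 0.407% were higher and 0.292% lower. At an unadjusted p under 0.05 the lists had 14 of 39 genes, where 10.3% of all tested genes did. Voom on the recovered reads called 4 of the 39, and 113 of all tested genes. Its 4 were not the same set, since it called Adgre1, Ccl6, Csf2rb and Mpo, and the main fit called Irf8 in place of Adgre1. The median log2 fold change was 0.34 over the 39 genes and 0.003 over all tested genes, with 29 of 39 positive. Every knockout library was above every control library for 16 of the 39 (against 8.52% of all tested genes). For 3 of the 39 every knockout library was below every control library, which is near the 8.01% of all tested genes. The lists were made with earlier results of these data known and are not independent evidence.

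Among the heme peroxidases, the family of Epx, 2 of 4 were tested (median log2 fold change 5.91), and the called gene was Mpo, the peroxidase of neutrophils and monocytes. Mpo lies 59584 bases before Epx on chromosome 11, with Lpo and Mks1 among the genes between them. It had 147, 0 and 96 control reads and 9248, 10171 and 11966 knockout reads, so that each knockout library was far above each control library. Mpo rose from 1.95 ± 1.83 to 253.7 ± 18.7 CPM (log2 fold change 9.05, SE 1.65, limma adjusted p = 0.0427). The call was lost without control replicate 3 or any 1 knockout replicate, with adjusted p up to 0.199 over the 6 fits with 1 library left out. Lpo, the peroxidase of secretions, had 0 reads in every library, and Pxdn, a peroxidase of basement membranes, had 1.14 ± 1.97 and 2.82 ± 3.07 CPM (limma adjusted p = 0.811).

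Among the RNase A relatives, 4 of 13 measured genes were tested and none was called, with a median log2 fold change of 3.01. The other ribonucleases did not share one pattern. Rnase6, an antimicrobial ribonuclease of myeloid cells, had 2185, 2161 and 2671 control reads and 1978, 2395 and 2589 knockout reads, or 58.0 ± 3.63 and 56.2 ± 2.89 CPM (adjusted p = 0.943 in limma). Rnase4, which shares a promoter region with Ang, had 0, 255 and 159 against 406, 363 and 567 reads, without overlap (limma adjusted p = 0.507). Ang, the gene of angiogenin, had 104, 2 and 32 against 90, 86 and 82 reads, so its groups overlapped (limma adjusted p = 0.609). Another 7 of the 13, Rnase1, Rnase2b, Ear14, Ang2, Ang4, Ang5 and Ang6, had 0 reads in every library. Rnase2a, named after its values were seen, had 0 control reads and 25, 0 and 1 in knockout. Rnase12, also named after its values were seen, had 0, 53 and 0 against 55, 112 and 113 reads, without overlap (limma adjusted p = 0.419). Ear3, Ear4, Ear7, Ear9, Ear12 and Ear13 were not matched to a row and were not analysed here.

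Among the receptors, 10 of 14 were tested (median log2 fold change 1.03), and the called gene was Csf2rb, the common beta chain through which interleukin 5, interleukin 3 and GM-CSF signal. Csf2rb had 504, 568 and 756 control reads and 1608, 1331 and 2317 knockout reads. It rose from 15.1 ± 2.45 to 42.5 ± 11.1 CPM (log2 fold change 1.47, SE 0.24, limma adjusted p = 0.0214). The call was lost without any 1 control replicate and without knockout replicate 1 or 3. It was kept without knockout replicate 2 (limma adjusted p = 0.0374). The highest limma adjusted p with 1 library left out was 0.142. Csf2ra, the GM-CSF-specific chain, had 39.4 ± 2.39 and 34.5 ± 7.06 CPM (adjusted p = 0.736, limma).

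The receptors that define eosinophils were low in both groups. Il5ra, the specific chain of the interleukin 5 receptor, had 9, 0 and 0 control reads and 51, 96 and 84 knockout reads, so the groups did not overlap. Its level was 1.85 ± 0.433 CPM in knockout and 0.0742 ± 0.129 CPM in control (limma adjusted p = 0.357). Ccr3, the eotaxin receptor, had 73, 0 and 59 against 236, 43 and 33 reads, and the groups overlapped (limma adjusted p = 0.693). Siglecf, a sialic acid-binding surface lectin of mature eosinophils, had 0, 0 and 180 against 11, 62 and 86 reads, also with overlap (limma adjusted p = 0.662). Adgre1, which encodes F4/80 and was named after its values were seen, had no control read and 198, 188 and 274 knockout reads (limma adjusted p = 0.0756), and the median of the list is the same with Adgre1 at its lower bound. Itgam, an integrin of myeloid cells, had 40.4 ± 5.74 and 45.8 ± 6.91 CPM (limma adjusted p = 0.773), and Cysltr2, a leukotriene receptor, 21.2 ± 1.52 and 18.5 ± 1.98 CPM (limma adjusted p = 0.778).

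Among the transcription factors, 12 of 13 were tested (median log2 fold change 0.25), and the called gene was Irf8, a regulator of monocytes and of eosinophil development. Irf8 had 226, 75 and 169 control reads and 1212, 889 and 611 knockout reads. It rose from 3.83 ± 1.78 to 22.5 ± 9.53 CPM (log2 fold change 2.58, SE 0.44, limma adjusted p = 0.0315). The call was lost without control replicate 2 or 3 and without any 1 knockout replicate, with adjusted p up to 0.16. Voom on the recovered reads did not call Irf8.

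Gata1, which directs the erythroid, megakaryocyte, mast cell and eosinophil lineages, was already present in control LT-HSC. Control reads were 3504, 3453 and 4052 and knockout reads 4528, 4775 and 4885, or 91.1 ± 3.82 and 115.2 ± 6.35 CPM. All knockout libraries were above all control libraries, and the log2 fold change of 0.34 (SE 0.11) had a limma adjusted p of 0.286. Gata2, its relative in stem and mast cells, had 420.9 ± 49.0 and 438.1 ± 33.9 CPM (limma adjusted p = 0.868). Zfpm1, the GATA1 cofactor, had 102.3 ± 10.7 and 121.4 ± 6.36 CPM (limma adjusted p = 0.490), and Xbp1, a secretory factor that eosinophil precursors need, 193.6 ± 19.5 and 230.2 ± 18.2 CPM (limma adjusted p = 0.421). Cebpe, which is required for the granules of neutrophils and eosinophils, had 0, 0 and 1 control reads and 69, 40 and 23 knockout reads and did not pass the filter.

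Among the enzymes and the granule and secretion genes, 11 of 13 were tested (median log2 fold change 0.33), and the called gene was Ccl6, a chemokine of myeloid cells. Ccl6 had 47, 28 and 69 control reads and 959, 1202 and 854 knockout reads. It rose from 1.17 ± 0.411 to 24.5 ± 4.41 CPM (log2 fold change 4.42, SE 0.41, limma adjusted p = 0.000615) and was called in each of 15 alternative fits. Alox15, the lipoxygenase of eosinophils and resident macrophages, had 0, 102 and 97 control reads and 350, 738 and 839 knockout reads, or 1.66 ± 1.47 and 15.3 ± 5.14 CPM (limma adjusted p = 0.315). Without control replicate 1, the library with no Alox15 read, the adjusted p was 0.0243.

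General granule genes of haematopoietic cells were abundant in both groups, and none was called. Srgn, the proteoglycan that packs basic proteins into granules, had 1147 ± 24.0 CPM in control and 1036 ± 71.2 in knockout (log2 fold change -0.15, limma adjusted p = 0.398), with every knockout library below every control library. Cd63, a granule membrane tetraspanin, had 415.2 ± 6.63 and 350.3 ± 31.3 CPM (limma adjusted p = 0.288), likewise without overlap. Vamp8, a fusion protein of granule release, had 502.8 ± 24.9 and 428.8 ± 41.7 CPM (limma adjusted p = 0.337).

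**Figure D3:**
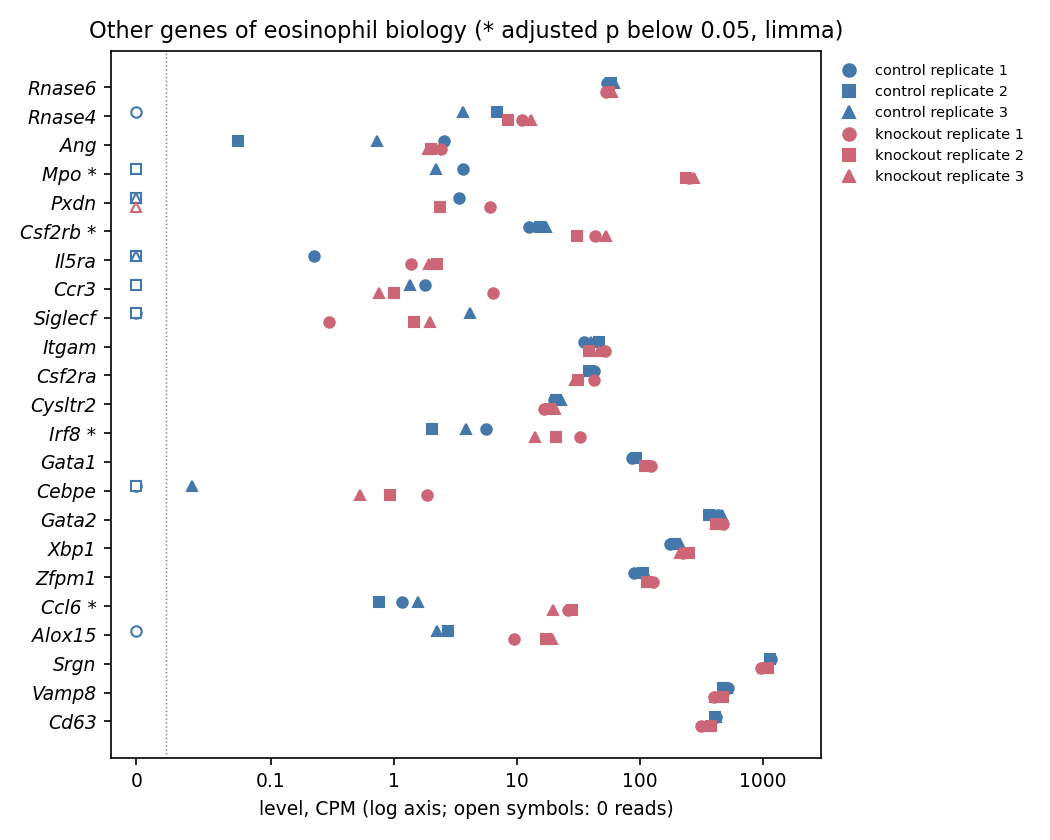
Level in CPM (log axis, 0 as open symbols left of the dotted line) of named genes of the 5 lists in the 3 control (blue) and 3 knockout (red) libraries; a star marks limma adjusted p below 0.05. Mpo, Csf2rb, Irf8 and Ccl6 carry the star, while every knockout library lies slightly below every control library for Srgn and Cd63, and the groups overlap for Vamp8 and Rnase6.

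Genes of other mature blood cells also lay higher in the knockout libraries, and their part in the result was not tested. The shares to read these counts against are the 8.52% of all tested genes with every knockout library higher and the 8.01% with every one lower. In a neutrophil list of 16 genes, 12 of 15 tested lay higher in every knockout library, and the summed level was 309 to 327 CPM in control and 910 to 1090 in knockout. In the basophil and mast cell list of 11 genes, 3 of 5 tested did so, with sums of 13.7 to 18.4 against 94.9 to 108 CPM. Prss34 and Mcpt8, proteases of basophils, had no control read, and the mast cell proteases Cma1, Tpsb2, Tpsab1 and Mcpt4 had 0 reads in every library. In the B and plasma cell list of 11 genes, 6 of 7 tested were higher and 1 (Cd79b) lower without overlap, with sums of 60.8 to 67.7 against 236 to 253 CPM, and Igkc, Ms4a1, Ebf1 and Igll1 were among those with no control read.

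In the monocyte and macrophage list of 12 genes, 5 of 8 tested lay higher in every knockout library (again against 8.52% of all tested genes, here and for the next lists), with sums of 573 to 592 against 793 to 900 CPM, mostly Lyz2. In the erythroid list of 9 genes the count was 5 of 7, with sums of 57.5 to 79.7 against 99.2 to 106 CPM. In the T and NK cell list of 8 genes it was 0 of 2, with sums of 75.1 to 90.0 against 93.1 to 113 CPM, mostly Nkg7. Cd3e, Cd8a, Ncr1 and Gzmb had 0 reads in every library. Among genes of the sort gate, Cd48, whose protein the gate excludes, had 6.62 ± 3.596 and 12.3 ± 6.12 CPM (limma adjusted p = 0.581), and Ly6g, the surface marker of neutrophils, had 22, 24 and 12 against 0, 45 and 14 reads.

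The summed control level of the eosinophil genes, which were chosen by these same reads, was below that of each of these lists. The highest sum of the 7 genes in a control library was 0.894 CPM, and the lowest sum of any of those 6 lists in a control library was 13.7 CPM. That difference in control level is a description of lists of different lengths and was not tested. Much of 3 control sums came from single genes, since Cpa3 had 12.7 ± 0.955 CPM in control, Cd79b 61.0 ± 2.86 and Prtn3 209.2 ± 7.07. In the same lists Prss34, Mcpt8, Mmp8 and Igkc had no control read, so an absence from control was not particular to the eosinophil genes.

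**Figure D4:**
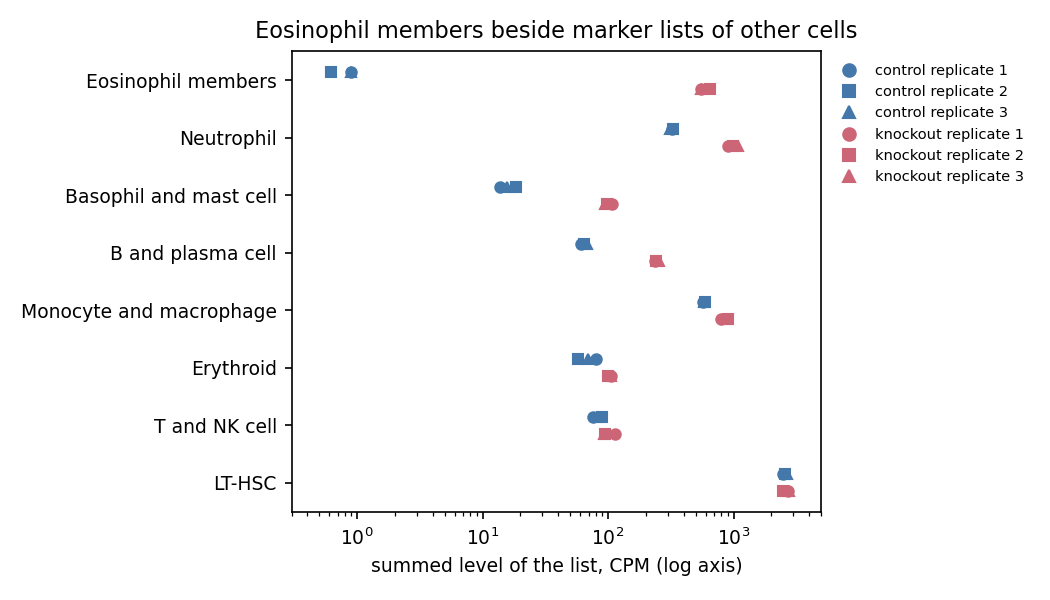
Summed level in CPM (log axis) of the 7 eosinophil genes and of 7 marker lists in each of the 3 control (blue) and 3 knockout (red) libraries. The eosinophil genes go from 0.624 to 0.894 CPM in control to 545.9 to 649.2 in knockout, the LT-HSC list overlaps between the groups, and the lists of mature blood cells lie higher in knockout.

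The genes whose levels were most like those of Epx over the 6 libraries included genes of plasma cells, neutrophils, basophils and monocytes. Likeness was the Euclidean distance between levels on the scale log2(CPM + 1), over all genes and 6 libraries, and it describes level and difference together. Nearest to Epx were Igkc (0.407), Igha (0.805), Elane (1.18), Prss34 (1.47), Ly6c2 (2.57), Jchain (3.13), F13a1 (3.38) and Ighm (3.56). The nearest of the 7 genes to Epx was Ear6, at 2.95, followed by Prg2 at 3.50, with Ear10 farthest at 11.5. Igkc had 4301, 5335 and 4995 knockout reads and no control read, and was thus the gene with the highest knockout level among those with 0 control reads, next above Epx.

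Outside the 7 genes, those nearest to Prg2 were Mpo (1.93), Igkc (3.14), Igha (4.19), Elane (4.43), Prss34 (4.86), Ly6c2 (5.55), Jchain (6.06) and Ighm (6.53). Of the 7 genes, Epx lay at 3.50 from Prg2 and Ear6 at 6.35. Elane, the neutrophil elastase of promyelocytes, had 0, 0 and 19 control reads and 66.6 ± 5.54 CPM in knockout. Few control reads in these genes follow from the way they were picked.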

How the data were processed

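RNA-seq was done on 3 control and 3 knockout libraries, grouped by their genotype labels. The authors deposited log2 values for 27179 genes; the submitters' processing notes name the tools FastQC, HISAT2 and featureCounts, then limma, on mm10. Not given in the sources used here are versions, strand, read length and how reads with several matches were treated. Each value is a log2 CPM to which 0.5 reads had been added, and undoing this gave whole reads for 100.0% of values (tolerance 0.01). CPM here are these reads over the same effective library size. The RefSeq gene table of GRCm38.p6 matched 25275 gene IDs. No column of values was left unmapped.

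Genes with deposited log2 CPM of at least 0 (1 CPM) in at least 3 of 6 libraries were tested, which left 13018. limma 3.58.1 (R 4.3.3; eBayes with trend, group only) was run on the log2 values as deposited, and p-values were adjusted by Benjamini-Hochberg over all tested genes and called below 0.05. The procedure was tested on simulated data. Log2 fold changes depend on the 0.5-read offset where a library has 0 reads. Floors are 3 reads per library. The 7 genes, the lists, the motifs and the naming rule were chosen with earlier results of these data known. Genes named are the 7, every called gene of the 5 lists, Il5ra, Ccr3, Siglecf, Gata1, Cebpe, Alox15 and Mpo, up to 3 more per list by highest mean CPM, and the 8 genes nearest to Epx and to Prg2. Neighbours were added by position, and genes of the marker lists are named where a sum or a 0 rests on them. Alternatives were other filters (none; 5 CPM), pseudocounts (1 and 0.1 CPM), median centring, no trend, robust eBayes, voom on recovered reads, a replicate block, plain library totals and leaving out each library. Sequences are from RefSeq (GRCm38.p6) and, for shared stretches of transcripts, from the GENCODE annotation of GRCm38. Python 3.11.15, Biopython 1.88 and matplotlib 3.10.9 were used. Some items are not reported here.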

Additional observations from a re-analysis of the deposited data

How the results depend on the processing

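The summed level of the 7 genes in knockout was 581.8 CPM, 548.1 to 599.8 CPM with 1 knockout library left out and 582.6 CPM with plain library totals. Of 54 alternative values of the log2 difference of the 6 genes that passed the filter, 10 moved by more than 1 SD; their sign was fixed by the choice of the genes. Of the eosinophil lists 4 genes were called higher, 2 without the trend and 1 to 5 with 1 library left out, and none was called lower in any fit. Ccl6 was called in all 15 alternatives (adjusted p 4.95e-05 to 0.0197). Mpo lost the call in 7, also without a low-value filter, without the trend and with robust eBayes (1.03e-06 to 0.32), Csf2rb in 6, also without the trend (0.00828 to 0.142), and Irf8 in 8, also without a filter, without the trend and with voom (0.0101 to 0.198). Adgre1 was called without a filter, with log2(CPM + 1), log2(CPM + 0.1), no trend and voom, and without each control replicate in turn. Alox15 was called with log2(CPM + 1) and without control replicate 1. Of all tested genes 91 were called, 164 with log2(CPM + 1) and 41 to 92 with 1 library left out. The cause was not tested. Replicate numbers do not pair the libraries, since deviations of same-numbered libraries correlated at -0.021 to 0.02; with a replicate block 67 genes were called in all and 4 in the lists, the same 4 genes.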
